A study of Sus scrofa with 8 samples.

Results

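The ZNF genes are the rows of the liver mRNA table whose Ensembl pig symbol is ZNF followed by a number. They numbered 164 among 21607 mRNA rows, and each symbol was held by a single row. A symbol was paired with 11654 of the rows (53.9%), so a ZNF gene without one could not be counted here. The pig name table lists 264 ZNF symbols in all, of which 100 had no row among these mRNAs. Of the 164 members, 14 carry a letter after the number, such as ZNF286A or ZNF75D, and 150 do not.

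The mRNAs were measured in the livers of 4 healthy, unrelated female pigs of the Yana breed, an indigenous Chinese breed also spelled Yanan. The young group was 2 sows at 180 days after birth and the old group was 2 sows at 8 years. The paper states that the young sows had never given birth, while the old ones were removed from production after years of giving birth. Age and reproductive history therefore cannot be told apart in these animals. No sow carried an engineered allele or received an experimental agent, and each liver is 1 animal represented by 1 directional RNA-seq library made after removal of rRNA. Every test below therefore has only 2 sows per age, and its standard errors and p-values also draw on the spread of all genes tested.

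Most ZNF genes encode proteins that hold DNA through arrays of C2H2 zinc fingers, short loops folded around a zinc ion by a pair of cysteines and a pair of histidines. In many of them a KRAB domain before the fingers binds the corepressor TRIM28, which brings the histone methyltransferase SETDB1 and heterochromatin proteins to the bound site, often a transposable element. Others carry a SCAN domain for pairing with one another, or act outside transcription on RNA, ribosomes or the mitotic spindle.

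The deposited values were CPM, reads scaled to the size of the library. They hold no correction for gene length, so an order of CPM between genes ranks reads and not transcripts. Whole reads could be recovered from the steps between values, and the listed mRNAs and lncRNAs held 51494798 and 52207649 reads in young replicates 1 and 2 against 28324675 and 31630060 in old replicates 1 and 2. By these steps 1 read was worth 0.0109 to 0.0162 CPM. The CPM were therefore scaled to more reads than the listed mRNAs and lncRNAs held. Depth for these genes was modest, with a median of 70 and 51 reads per ZNF gene in young replicates 1 and 2 and of 41.5 and 44 in old replicates 1 and 2. Intervals and limits from such reads cover counting error only.

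The tissue label was checked against its defining markers. All 8 hepatocyte markers with a row, of 10 in the list, were read in every library. Their summed level was 88346 and 98086 CPM in the young livers and 62010 and 66465 CPM in the old livers. Per 10000 of the summed mRNA CPM these were 2161 and 2287 in young and 1697 and 1920 in old livers. The 6 macrophage markers with a row, of 10, summed to 233 and 254 CPM in young and to 343 and 376 CPM in old livers. The 7 T and NK cell markers, of 10, summed to 61.2, 40.9, 226 and 44.4 CPM in young replicates 1 and 2 and old replicates 1 and 2, most of it from CD247. Without CD247 the other 6 summed to 7.98, 10.6, 19.8 and 12.9 CPM, and both old livers lay above both young ones. The 17 interferon-stimulated genes with a row, of 25, summed to 60.9, 72.2, 1972 and 50.4 CPM in the same order, and old replicate 1 therefore stood apart. None of these lists had a marker at 0 except OASL, an interferon-stimulated gene listed at 0 in young replicate 2. In bulk liver, fewer cells of a type and less RNA per cell cannot be told apart, and the part of these shifts in the ZNF values was not tested.

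Nearly all ZNF genes were detected in liver at both ages. A value above 0 was listed for 151 and 141 members in young replicates 1 and 2 and for 161 and 160 members in old replicates 1 and 2. The same was true of 70.5%, 66.1%, 79.9% and 78.6% of all mRNA rows, so both the ZNF genes and the table at large were listed more often in the old livers, although those had fewer reads. In all 4 livers 135 members (82.3%) were above 0, against 60.8% of all rows. A further 20 members were above 0 in 3 livers, 5 in 2 livers and 3 in 1 liver. ZNF804B alone was at 0 in every liver, and 3 reads correspond to 0.0327 to 0.0487 CPM across the libraries.

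By age, 156 members were above 0 in at least 1 liver of both groups, 6 were above 0 only in old livers and 1 only in a young liver. Over all mRNA rows 11.3% were above 0 only in old livers and 2.1% only in young ones, so 3.66% and 0.610% of the ZNF genes were small shares beside that background. The balance turned with the level that counted as detection. With more than 3 reads required, 5 members were seen only in old (3.05%, against 8.04% of all rows) and 7 only in young livers (4.27%, against 3.51%). At 1 CPM or more the counts were 11 (6.71%, against 5% of all rows) and 27 (16.5%, against 5.75%).

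The 6 members read only in old livers were ZNF365, ZNF503, ZNF648, ZNF804A, ZNF385D and ZNF750. ZNF365, which protects the genome at fragile sites and stalled replication forks, had no read in a young liver, against 10 and 13 reads in old replicates 1 and 2. Its old mean of 0.172 CPM was 5.09-fold above a floor of 3 reads per young library, a mean of 0.0337 CPM. Young libraries also listed 0 where the other young liver held at least 20 reads. Folds over this floor are therefore not lower bounds. ZNF503, a repressor studied in embryonic development, was unread in the young livers, while the old livers gave 0.081 and 0.153 CPM. Its old mean was 3.48-fold above the same floor. ZNF648 was at 0.032 and 0.125 CPM in old livers, from 2 and 9 reads, and its old mean was 2.33-fold above that floor. Its value in old replicate 1 itself lay under 3 reads. The other 3 lay at 1 read in a library, including ZNF385D with 1 read in old replicate 2 and ZNF750, an epidermal differentiation factor, with 1 read in old replicate 1, and no fold is given for them. The member read only in a young liver was ZNF510, with 45 reads in young replicate 1 and none in the other 3 livers.

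ZNF510 was an example of a wider feature of the young libraries, in which a member could be listed at 0 although its partner of the same age held many reads. In young replicate 2, 10 of the 133 members with at least 20 reads in young replicate 1 were listed at 0 (7.52%, against 7.19% of all mRNA rows). In young replicate 1 the count was 4 of 118 (3.39%, against 4.18%). In the old livers it was 0 of 118 and 0 of 116, against 0.835% and 0.981% of all rows. ZNF569 had 104 reads in young replicate 1, 0 in young replicate 2, and 18 and 15 reads in old replicates 1 and 2. ZNF404 had 0 and 59 reads in young replicates 1 and 2, against 5 in each old liver. ZNF527 had 59 and 0 young reads against 17 and 13 old ones, and ZNF2 had 47 and 0 against 15 and 12. In these 4 genes both old livers lay between the young ones, and the age difference therefore rested on which young liver was read. The origin of these zeros was not tested, and each library's value is given for such genes in place of a mean.

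**Figure D1:**
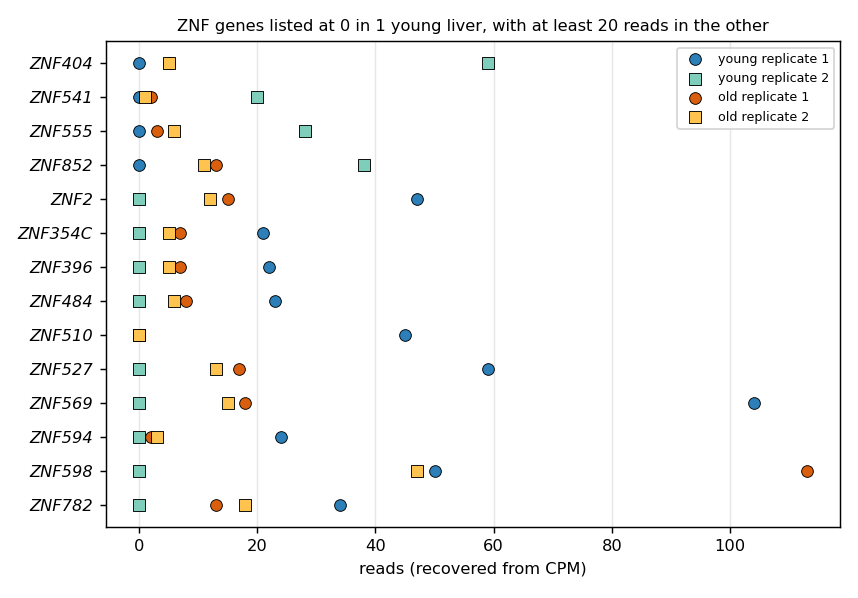
Recovered reads (x axis) of the 14 ZNF genes that were listed at 0 in 1 young liver and had at least 20 reads in the other, with 1 point per liver and overlapping points where livers share a value. Reads of the other young liver ranged from 20 in ZNF541 to 104 in ZNF569, and ZNF598 reached 113 reads in old replicate 1.

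The level of the family as a whole was close in all 4 livers. The 164 members summed to 242 and 224 CPM in young replicates 1 and 2 and to 212 CPM in each old liver. The old sums lay below both young ones. All mRNA rows likewise summed to less in old livers, at 365330 and 346173 CPM against 408898 and 428910 CPM in young ones. Levels and counts on the deposited scale are not corrected for this. The order of the ZNF sums turned when the libraries were scaled with the TMM factors of edgeR. These gave 221 and 214 CPM in young against 226 and 227 CPM in old livers. As a share of all mRNA reads the members held 5.92, 5.21, 5.80 and 6.12 per 10000 in young replicates 1 and 2 and old replicates 1 and 2, and the age groups overlapped on that measure. The median member stood at 0.762 and 0.589 CPM in young and 0.674 and 0.613 CPM in old livers. Of the 164 members, 92 (56.1%) had a mean of 0.1 to under 1 CPM, where 24.4% of all rows lay, and 3 reached a mean of 10 CPM or more. The 8 members with the highest means held between 31.6% and 37.7% of the summed CPM.

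**Figure D2:**
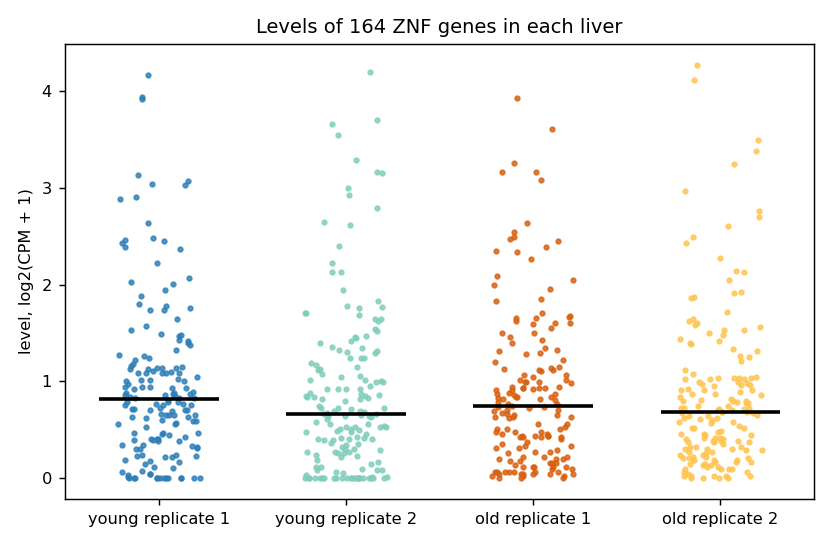
Level of each of the 164 ZNF genes as log2(CPM + 1) (y axis) in each liver, with 1 point per gene and the median as a bar. The medians lay between 0.668 and 0.817 on this scale, and a few genes in each liver stood above 3.

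These 8 genes differed in how closely the livers of an age matched. ZNF207, which binds microtubules and loads the checkpoint protein BUB3 during mitosis, was at 14.3 and 12.004 CPM in young and 11.2 and 9.45 CPM in old livers. ZNF277, reported to bring Polycomb proteins to the Cdkn2a locus in mouse cells, was at 14.1 and 17.4 CPM in young livers, whereas the old ones gave 4.84 and 16.4 CPM, so the gap between the old livers exceeded the gap between ages. ZNF428 crossed over within both ages, with 16.9 and 8.80 CPM in young and 8.60 and 18.4 CPM in old livers. ZNF330, a nucleolar protein, was at 7.40 and 7.98 CPM in young livers against 14.3 and 5.51 CPM in old replicates 1 and 2, and its high value fell in the library with the high interferon-stimulated genes. ZNF511 had the largest spread between young livers, 4.40 and 11.7 CPM, and its old values of 7.48 and 10.3 CPM lay between them. ZNF789 stayed between 7.23 and 8.48 CPM and ZNF281, a factor of GC-rich promoters, between 6.48 and 7.95 CPM in the 4 livers. ZNF75D, with 7.81 and 10.7 CPM in young and 4.62 CPM in both old livers, was the 1 member of the 8 with an unadjusted limma p under 0.05 between ages.

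Differences between ages were tested with limma on log2(CPM + 1), over the 16898 mRNA rows above 0 in at least 2 livers, with Benjamini-Hochberg adjustment over all of them. Of the 164 members 160 entered the test, and ZNF385D, ZNF510, ZNF750 and ZNF804B did not. With an adjusted p under 0.05 and an absolute log2 fold change of more than 1 required, none of the 160 passed, and the same count over all rows was 0%. At an unadjusted p under 0.05, 9 members were higher in old livers (5.62%, against 6.78% of all rows) and 11 were lower (6.88%, against 8.93%). With 2 animals per age the smallest adjusted p of any row by limma was 0.213. On the recovered reads, edgeR's exact test passed 2 members that were higher in old livers, where 2.7% of all rows passed, and 0 that were lower, where 0.456% passed. The quasi-likelihood test of edgeR passed 0, with 8 higher (5%, against 11.6% of all rows) and 3 lower (1.88%, against 3.08%) at an unadjusted p under 0.05.

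The 2 members that passed the exact test were ZNF787 and ZNF212. ZNF787 (ENSSSCG00000003317), a C2H2 protein of little-known function, was close to the limit of detection in young livers, with 0.022 and 0 CPM, and was at 1.54 and 1.03 CPM in the old ones. It had 2 reads in both young livers together and 169 in the old ones, a ratio of 113 after scaling to library size, with a 95% counting interval of 30.8 to 941, and edgeR's exact test gave an adjusted p of 0.000712. By limma its log2 fold change on the log2(CPM + 1) scale was 1.17 ± 0.167 (SE, n = 2 per age, adjusted p = 0.213). ZNF212 (ENSSSCG00000016773) was at 0.479 and 0.393 CPM in young and at 2.10 and 1.95 CPM in old livers, a 4.64-fold difference of the means. Its log2 fold change by limma was 1.07 ± 0.115 (SE, n = 2 per age), with an adjusted p of 0.213 by limma and of 0.0486 by edgeR's exact test. In both genes the old livers lay above both young ones by more than they differed from each other.

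A further 4 members with both old livers above both young ones were named by the smallest limma p among genes of at least 0.5 CPM, and none passed an adjusted threshold. ZNF205 was at 0.479 and 0.162 CPM in young and 1.69 and 1.41 CPM in old livers, 4.83-fold higher. ZNF696 was at 0.142 and 0.589 CPM in young and 1.93 and 1.71 CPM in old livers, 4.99-fold higher. In both of these the young livers stood further apart, relative to their level, than the old ones. ZNF213, a SCAN domain protein, was at 0.381 and 0.451 CPM in young and 1.02 and 1.03 CPM in old livers. ZNF524, which binds telomeric DNA, was at 1.82 and 2.14 CPM in young and 3.25 and 4.40 CPM in old livers, 1.93-fold higher. Their unadjusted limma p ran from 0.0112 for ZNF205 to 0.0282 for ZNF524.

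The 6 members named by the same rule in the other direction were read more in young livers. ZNF251 had the largest difference on the log2(CPM + 1) scale, with 5.24 and 5.15 CPM in young and 2.05 and 1.61 CPM in old livers, a difference of -1.13 ± 0.138 (SE, n = 2 per age, limma adjusted p = 0.213). ZNF565 was at 1.43 and 1.49 CPM in young and 0.422 and 0.459 CPM in old livers, 3.31-fold lower. ZNF286A was at 0.915 and 1.46 CPM in young and 0.162 and 0.223 CPM in old livers, 6.16-fold lower, from 84 and 126 reads against 10 and 16. The naming rule took only genes without overlap between ages, so this holds for all 6 genes by selection. ZNF239, the human MOK2 protein that binds both DNA and RNA, was at 1.79 and 2.23 CPM in young and 0.894 and 0.947 CPM in old livers. ZNF75D, with a SCAN domain, was 2.003-fold lower, as given above, and ZNF25 was at 1.198 and 1.375 CPM in young and 0.666 and 0.613 CPM in old livers, 2.01-fold lower. By edgeR's exact test the adjusted p of these 6 genes ran from 0.225 to 0.851, so none passed 0.05 after adjustment over all genes tested. The dispersion of that test also draws on all genes, so its p does not measure the spread between sows in these genes alone.

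**Figure D3:**
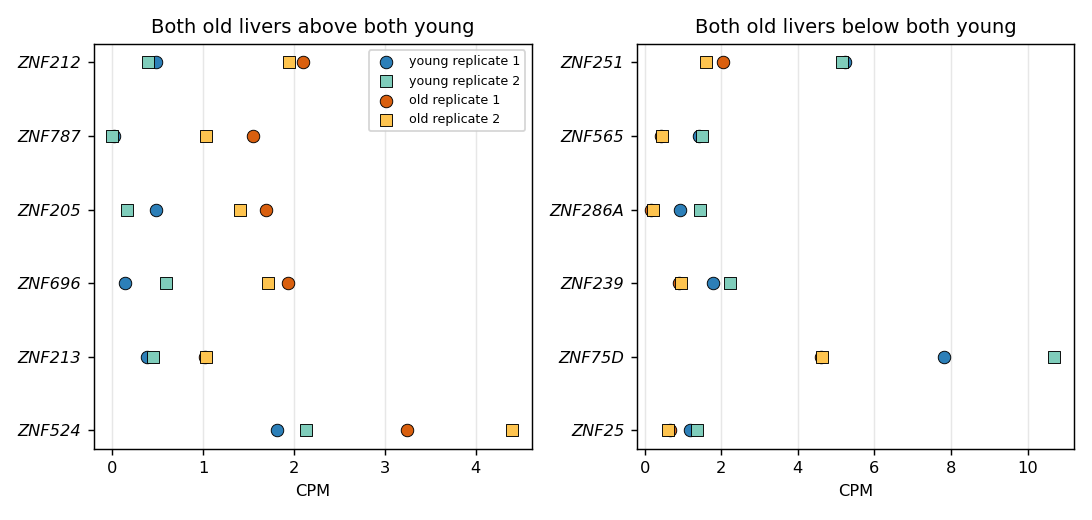
CPM (x axis) in each liver of the 6 ZNF genes named as higher and the 6 named as lower in old livers, ordered by limma p from the top, with blue and green for the young livers and orange and yellow for the old ones. ZNF212 and ZNF787 at the top left had old values from 1.03 to 2.10 CPM against young values of 0.479 CPM or less, and ZNF75D had the highest levels of the right panel.

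Sow by sow, 32 of the 160 members tested had both old livers above both young ones (20%, against 24.4% of all rows tested) and 48 had both below (30%, against 25%). Under TMM scaling the counts were 37 and 36, against 29% and 19.1% of all rows. Among the 135 members above 0 in all 4 livers they were 23 (17.0%, against 18.3% of all rows above 0 in all 4 livers) and 48 (35.6%, against 30.9%). The median log2 fold change of the members tested was -0.042, and that of all rows tested was -0.0228. Under TMM scaling these medians were -0.00836 and 0.0346.

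By level, most members lie at a mean of 0.1 to under 1 CPM, and there the split differed from that of the table in both directions. Of the 91 members tested with a mean of 0.1 to under 1 CPM, 14 had both old livers above both young ones (15.4%, against 27% of the rows of that level) and 31 had both below (34.1%, against 16.8%). Under TMM scaling the shares were 20.9% against 31.1% above and 23.1% against 13.3% below. When only genes above 0 in all 4 livers were counted, they were 13.0% against 21.0% above and 40.3% against 23.5% below. When any single library was left out, the ZNF genes still had the smaller share above and the larger share below, with 20.9% to 42.9% of members against 31.3% to 50.7% of rows above, and 38.5% to 59.3% of members against 26.3% to 37.3% of rows below. Among the 14 tested members of under 0.1 CPM, 5 lay above (35.7%, against 49.5% of rows) and 1 below (7.14%, against 7.16%), so the share below was that of the table. Such genes entered the test only if 2 livers were above 0. Among members of 1 to under 10 CPM, 13 lay above and 15 below of 52, or 25% and 28.8%, against 18.6% and 30.2% of rows. The level classes were set after values had been seen and no test was made of these shares.

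**Figure D4:**
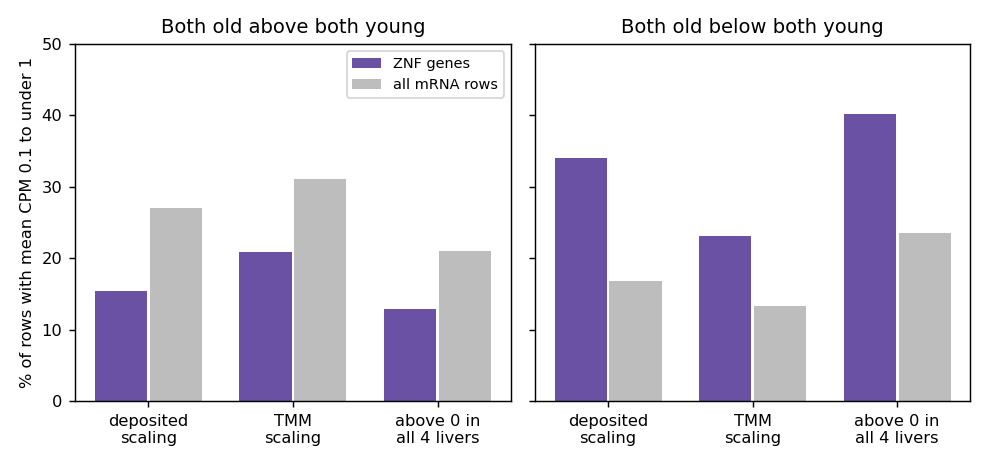
Share in percent (y axis) of ZNF genes and of all mRNA rows with a mean of 0.1 to under 1 CPM whose old livers both lay above (left panel) or both below (right panel) the young livers, for the deposited scaling, for TMM scaling and for genes above 0 in all 4 livers. The ZNF bars are shorter than the bars of all rows on the left, with 15.4% against 27% at the deposited scaling, and taller on the right, with 34.1% against 16.8%.

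Gaps between sows of an age were set beside gaps between ages. The age gap is between means of 2 livers, which vary less than single livers, so the sizes are not like for like. The median absolute log2 difference over the 160 members was 0.246 between the young livers, 0.166 between the old livers and 0.223 between the age means. Over all rows tested the same values were 0.269, 0.249 and 0.290. The largest gap between old livers after ZNF277 was that of ZNF395, a factor induced in hypoxia, with 1.15 and 5.09 CPM against 1.89 and 2.55 CPM in the young livers. The largest gap between young livers after ZNF511 was that of ZNF280C, with 1.69 and 0.196 CPM against 0.764 and 0.766 CPM in the old ones. In both genes the other age lay inside the gap.

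Members known for work on RNA, ribosomes or the spindle were taken as a list of 10, of which 7 had a row. Of the 7, 1 had an unadjusted limma p under 0.05, ZNF638, which binds cytosine-rich DNA and works with the HUSH silencing complex. ZNF638 was at 7.197 and 7.001 CPM in young and 4.47 and 2.66 CPM in old livers, a log2 difference of -0.86 ± 0.251 (SE, n = 2 per age, limma adjusted p = 0.288). ZNF598, the ubiquitin ligase that senses collided ribosomes, was at 0.544 and 0 CPM in young livers against 1.84 and 0.654 CPM in old replicates 1 and 2, again highest in the library with the high interferon-stimulated genes. ZNF622, needed for the last steps of large ribosomal subunit maturation, was at 2.34 and 3.37 CPM in young and 2.05 and 2.30 CPM in old livers. ZNF346, a double-stranded RNA binding protein, was at 0.054 and 0.196 CPM in young and 0.422 and 0.599 CPM in old livers. ZNF106, an RNA-binding protein, ranged from 2.13 to 4.26 CPM with the ages overlapping. Taken as a list, 2 of the 7 had both old livers above both young ones (28.6%, against 24.4% of all rows tested) and 3 had both below (42.9%, against 25%), with a median log2 fold change of -0.26.

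Members tied to lipid, glucose or adipose gene control numbered 7 with a row, of 8, and none had an unadjusted limma p under 0.05. ZNF202, a repressor of lipid metabolism genes, was at 1.14 and 1.17 CPM in young and 0.682 and 0.988 CPM in old livers. ZNF692, which represses gluconeogenic genes downstream of AMPK, was at 1.503 and 1.375 CPM in young and 1.07 and 1.03 CPM in old livers. In both of these the old livers lay below the young ones. ZNF217, an oncogenic partner of the CoREST complex, was at 0.925 and 2.26 CPM in young and 0.634 and 0.515 CPM in old livers. ZNF148, which binds GC-rich promoters, ranged from 2.78 to 5.27 CPM, and ZNF423, a regulator of preadipocyte commitment, from 0.081 to 0.362 CPM, and the ages overlapped in both. The list had 1 member with both old livers above (14.3%, against 24.4% of all rows tested) and 3 with both below (42.9%, against 25%), and its median log2 fold change was -0.24.

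Members known as general transcription or chromatin factors numbered 14 with a row, of 17. ZNF76 had the only unadjusted limma p under 0.05 among them, with 1.19 and 1.56 CPM in young and 2.18 and 2.80 CPM in old livers, a log2 difference of 0.55 ± 0.172 (SE, n = 2 per age, limma adjusted p = 0.303). Its close relative ZNF143, which like ZNF76 activates small nuclear RNA and housekeeping promoters, was at 4.52 and 4.26 CPM in young and 4.55 and 3.13 CPM in old livers, so the ages overlapped. ZNF410, an activator of CHD4, was at 1.22 and 0.820 CPM in young and 0.910 and 0.835 CPM in old livers. ZNF274, which brings SETDB1 to clusters of zinc finger genes, was at 0.773 and 0.763 CPM in young and 0.991 and 0.738 CPM in old livers. ZNF335, part of a histone H3K4 methyltransferase complex, had its lowest value of 0.327 CPM in young replicate 1 and was at 1.25 CPM in young replicate 2, against 1.495 and 1.072 CPM in old livers. These 3 overlapped between ages. ZNF644, a partner of the histone methyltransferases EHMT1 and EHMT2, was at 1.13 and 2.43 CPM in young and 0.910 and 0.933 CPM in old livers. ZNF24, a SCAN domain factor, was at 6.402 and 5.915 CPM in young and 5.22 and 2.63 CPM in old livers, and ZNF512 was at 0.577 and 1.06 CPM in young against 0.357 and 0.306 CPM in old ones. Both old livers lay below both young ones in these 3. ZNF516, ZNF687, ZNF384 and ZNF263 lay between 0.289 and 2.28 CPM, and ZNF711 and ZNF827 between 0.014 and 0.195 CPM. In the list as a whole 2 members had both old livers above (14.3%, against 24.4% of all rows tested) and 4 had both below (28.6%, against 25%), and the median log2 fold change was 0.032.

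Members known for a SCAN domain, a list of 14 made after values had been seen, had 2 genes with both old livers above and 6 with both below, or 14.3% and 42.9% beside 24.4% and 25% of all rows tested, and a median log2 fold change of -0.0659. ZNF232 was at 0.686 and 0.774 CPM in young and 0.146 and 0.306 CPM in old livers, and ZNF449 was at 1.33 and 1.51 CPM in young and 0.536 and 1.04 CPM in old livers. ZNF174 lay the other way, at 1.24 and 0.624 CPM in young and 1.64 and 1.31 CPM in old livers. The family thus held members on both sides. In the ZNF385 family, RNA-binding proteins of another fold, ZNF385B was the most read, with 4.47 and 3.38 CPM in young and 3.15 and 5.79 CPM in old livers, and none of its 3 tested members separated the ages.

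ZNF genes lie in runs of relatives along the chromosomes, and neighbours were therefore set side by side. Gene order was taken from the RefSeq annotation of Sscrofa11.1, a later build than that of the files, and no position from it is given. An entry was found for 145 of the 164 members, and 61 of these lay in 23 groups in which adjacent members had at most 5 other protein-coding genes between them. The largest group held ZNF146, ZNF565, ZNF567, ZNF382, ZNF529, ZNF260 and ZNF566. Its 7 genes all had the lower fitted mean in old livers, and 5 had both old livers below both young ones, or 3 under TMM scaling. Of these, ZNF382 was at 0.893 and 0.416 CPM in young and 0.227 and 0.251 CPM in old livers, and ZNF529 was at 0.327 and 0.601 CPM in young and 0.146 and 0.167 CPM in old ones. ZNF146, a protein almost entirely of zinc fingers, showed no such gap, at 4.57 and 1.91 CPM in young and 4.24 and 2.09 CPM in old livers.

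ZNF286A, ZNF624 and ZNF287 formed a group in which all 3 had both old livers below both young ones, or 2 under TMM scaling. ZNF624 was at 0.773 and 0.497 CPM in young and 0.244 and 0.153 CPM in old livers, and ZNF287 was at 0.163 and 0.347 CPM against 0.081 and 0.139 CPM. Neighbours did not always move alike. In the group of ZNF174, ZNF263, ZNF200, ZNF213 and ZNF205, 3 genes had both old livers above both young ones and ZNF200 had both below, with 1.02 and 1.48 CPM in young and 0.601 and 0.543 CPM in old livers, under either scaling. In the group of ZNF251, ZNF34 was at 0.784 and 0.786 CPM in young and 0.569 and 0.599 CPM in old livers, whereas ZNF7 overlapped between ages at 3.08 and 1.63 CPM against 2.62 and 2.05 CPM. Pairs in which both genes lay higher in old livers were ZNF212 with ZNF777, ZNF628 with ZNF524 and ZNF789 with ZNF655, and those in which both lay lower were ZNF75D with ZNF449 and ZNF667 with ZNF471, of which the last pair kept 1 such gene under TMM scaling. Among the 60 tested members in groups 11 had both old livers above (18.3%) and 22 both below (36.7%), and among the 81 tested members outside groups 18 (22.2%) and 21 (25.9%), beside 24.4% and 25% of all rows tested. Near-identical copies can share reads, so single values within such runs are less certain than those of isolated genes.

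**Figure D5:**
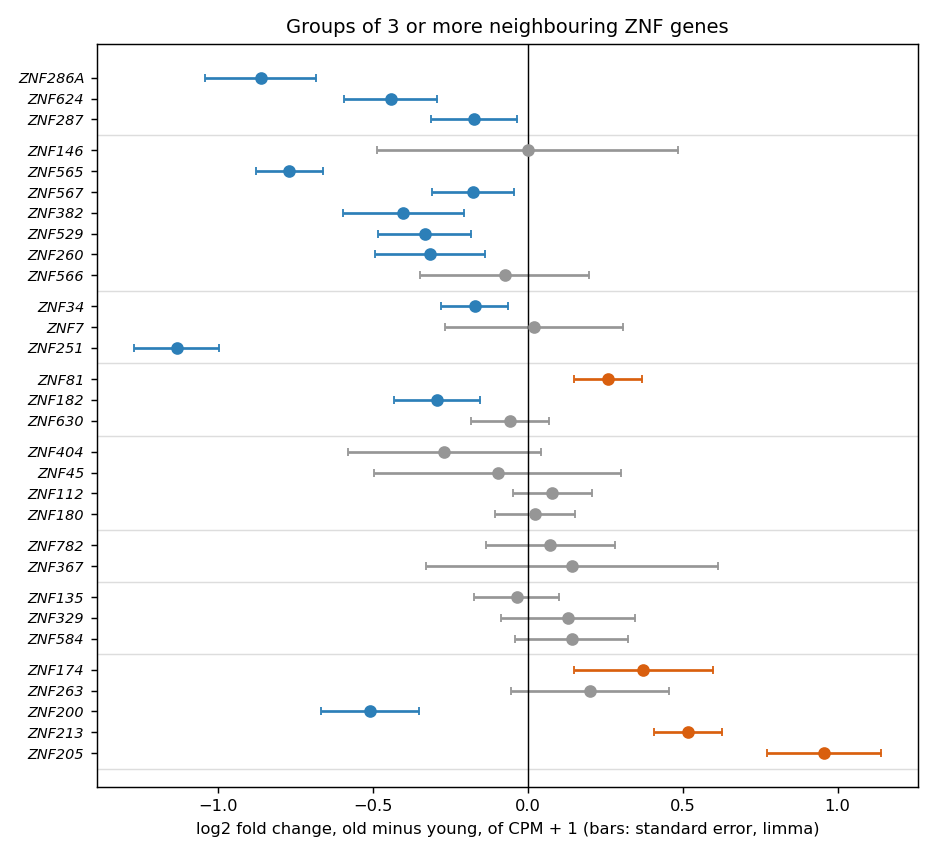
Log2 fold change of CPM + 1, old minus young (x axis), with the standard error from limma as bars, for the tested ZNF genes in groups of 3 or more neighbours, separated by lines. Blue points mark genes with both old livers below both young ones, orange points those with both above, and grey points those whose ages overlap. The groups of ZNF286A and of ZNF565 lie at or left of 0 throughout, while the group of ZNF205 spans both sides.

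The partners through which KRAB zinc finger proteins silence chromatin were listed as 37 genes, of which 30 had a row and TRIM28 itself did not. At an unadjusted limma p under 0.05, 2 were higher (6.67%, against 6.78% of all rows) and 3 were lower in old livers (10%, against 8.93%), and none passed the adjusted threshold. Both old livers lay above both young ones in 9 (30%, against 24.4% of all rows) and below in 7 (23.3%, against 25%), shares near those of the whole table. TRIM24, a relative of TRIM28 that restrains retinoic acid signalling in liver, was at 3.57 and 3.62 CPM in young and 1.10 and 1.29 CPM in old livers, a log2 difference of -1.06 ± 0.118 (SE, n = 2 per age, limma adjusted p = 0.213). SETDB1, the H3K9 methyltransferase, was at 1.67 and 1.41 CPM in young and 1.10 and 1.09 CPM in old livers. KDM1A, an H3K4 demethylase, was at 1.69 and 1.80 CPM against 1.14 and 1.10 CPM, and PPHLN1, a subunit of the HUSH complex, at 4.32 and 5.31 CPM against 2.42 and 2.78 CPM. The 2 that were higher at an unadjusted limma p under 0.05 were the NuRD subunits MBD3 and GATAD2A. MBD3 was at 15.3 and 14.2 CPM in young and 20.2 and 21.3 CPM in old livers, and GATAD2A at 0.784 and 1.10 CPM against 1.87 and 1.61 CPM. Of the other NuRD subunits with a row, both old livers lay above both young ones in GATAD2B and below them in HDAC2, and the rest overlapped. The histone chaperone DAXX was at 2.69 and 2.66 CPM in young livers against 18.7 and 4.47 CPM in old replicates 1 and 2. HDAC1 and MTA3 were listed at 0 in young replicate 2 although young replicate 1 held 2.28 and 1.19 CPM. Over the list the median log2 fold change was -0.0321, and its sign turned to 0.034 under TMM scaling.

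Other zinc finger families of the same table were small. Of the 7 ZFP genes tested, of 10, 4 had both old livers below both young ones and 0 both above, with a median log2 fold change of -0.28. Of the 11 ZSCAN and ZKSCAN genes tested, of 13, the counts were 4 below and 0 above. The 9 KLF genes tested, of 10, had 4 above and 1 below, the 25 ZBTB genes 6 above and 5 below, and the 12 ZC3H genes 4 above and 2 below. Beside these, the 160 ZNF genes lay at 32 above and 48 below, and no test was made between families. Over all rows tested 24.4% lay above and 25% below, and counts this small are given as they stand.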

How the data were processed

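RNA-seq libraries from the livers of 2 young and 2 old sows were used, grouped by the age in their labels. Per the labels and the study's methods, the authors aligned reads to Sscrofa10.2 with TopHat2 2.0.14, assembled transcripts with StringTie 1.2.3 and quantified them with Salmon 0.6.0. The deposited values, which the authors name TPM, were treated as CPM, because at least 99.95% of values above 0 in each library fell within 0.1 read of a whole multiple of 1 step. Replicates were not pooled. Columns without a sample numbered 0. The small RNA libraries, lncRNA tests and circRNAs were not used here.

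Symbols were matched by Ensembl identifier. Rows above 0 in at least 2 libraries were tested with limma 3.58.1 on log2(CPM + 1) with Benjamini-Hochberg adjustment over all rows. edgeR 4.0.16 gave the exact and quasi-likelihood tests on recovered reads and TMM factors, R was 4.3.3, and Python 3.11.15 with pandas 2.3.3, numpy 2.4.6, scipy 1.17.1 and matplotlib 3.10.9 did the counting and plots. The fits were tested on simulated data. Alternatives covered pseudocounts of 0.1 and 0.5, filters, scaling, the replicate block, the test, members without a letter suffix, members above 0 in all 4 libraries and leaving out each library. The members above 0 in all 4 libraries and the level classes, with their alternatives, were chosen after seeing the data.

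Genes were named by rule. These were the 8 members with the highest mean, the 6 per direction with the smallest limma p among members of mean 0.5 or more whose ages did not overlap, the 4 per direction with the highest mean at 0 in both livers of one age and above 0 in both of the other, the 2 per age with the largest gap between its livers, and all members of 3 role lists. Other genes were named within the runs of neighbours, the SCAN and ZNF385 lists and the zero values after their values were seen. The members and lists were chosen with earlier results of these data known. Domain classes and sequences of the proteins and promoters were not analysed here. Strandedness of the counting is not given in the sources used here.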

Additional observations from a re-analysis of the deposited data

How the results depend on the processing

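With 2 sows per age the smallest adjusted limma p was 0.213, and the median ZNF gene had 41.5 to 70 reads per library. Of 607 values of 49 named members under the alternatives, 583 kept their direction and side of the threshold, 2 went past it and 22 turned sign, in 14 members. Why a setting moved a value was not tested. The labels give the replicates as numbers only. Deviations of same-numbered libraries from their age means correlated at 0.0902 across genes. The value for crossed numbers, -0.0902, is the mirror of it by construction with 2 libraries per age. Whether same-numbered libraries shared a batch was not tested. With the replicate block 0 members passed the threshold, 9 lay higher in old livers and 8 lay lower by unadjusted p. The shares over all rows with the block are not given. The median log2 fold change stayed at -0.042.

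By unadjusted p under 0.05, 9 members lay higher in old livers and 11 lower. With a mean of at least 1 CPM required there were 3 and 3, and 13 and 16 did not overlap between ages, with fewer genes tested. TMM scaling gave 12 higher and 7 lower. For these 2 settings the shares over all rows by unadjusted p are not given. The exact test of edgeR gave 7 higher (4.38%, against 10.3% of all rows) and 2 lower (1.25%, against 2.7%). Its quasi-likelihood test gave 8 and 3, with the shares given above. By adjusted p the exact test passed 2 members. Without each library in turn, 40 to 65 lay above and 60 to 83 below (65 without young replicate 1 and 83 without young replicate 2). The median log2 fold change then ran from -0.121 to 0.0215. With 1 liver left at an age, ages overlap less often even without any difference, so these counts do not compare with those of all 4 livers. Their shares over all rows were not counted. Among members of 0.1 to under 1 CPM, 19 to 39 lay above (20.9% to 42.9%, against 31.3% to 50.7% of rows). In the same class 35 to 54 lay below (38.5% to 59.3%, against 26.3% to 37.3% of rows). The highest counts were again without young replicates 1 and 2.

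Detection depended on its definition. Members read only in old and only in young livers were 6 and 1 above 0, 5 and 7 with more than 3 reads, and 11 and 27 at 1 CPM. A looser count took members above 0 in both old livers but not in both young ones, and gave 24 (14.6%, against 13.8% of all rows). The reverse count was 0 (against 1.13% of all rows). Without a library, members above 0 only in old and only in young livers were 5 to 21 and 0 to 2. The count only in old was 21 without young replicate 1 and 12 without young replicate 2. At 1 CPM, 63, 54, 54 and 48 members were read in young replicates 1 and 2 and old replicates 1 and 2. In the same order summed CPM was 221, 214, 226 and 227 under TMM scaling, 217, 204, 198 and 197 without letter suffixes, and 228, 206, 207 and 195 without ZNF277.

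The corepressor median was 0.0661 with a pseudocount of 0.1, -0.25 with a mean of at least 1, 0.034 under TMM, 0.14 by both edgeR tests and -0.13 to 0.12 without a library. The ZFP median was -0.55 with a pseudocount of 0.1 and ran from -0.48 to -0.135 without a library. The KLF median was 0.36 with a pseudocount of 0.1, 0.98 by both edgeR tests and -0.0518 to 0.33 without a library. The ZC3H median was -0.25 with a mean of at least 1.

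ZNF280C turned to 0.25 and 0.0358 with pseudocounts of 0.1 and 0.5 and to 0.0643 under TMM, and ZNF143 to 0.00794 by the exact test and 0.00814 by the quasi-likelihood test of edgeR. Without 1 library the log2 fold change of 14 members turned sign, with ranges of -0.12 to 0.13 for ZNF384, -0.25 to 0.0407 for ZNF410, -0.12 to 0.22 for ZNF423, -0.47 to 0.55 for ZNF428, -0.0247 to 0.17 for ZNF274, -0.57 to 0.0523 for ZNF106, -0.029 to 0.43 for ZNF263, -0.0334 to 0.15 for ZNF827, -0.42 to 0.81 for ZNF330, -0.57 to 0.93 for ZNF395, -0.38 to 0.86 for ZNF511, -0.61 to 0.56 for ZNF280C, -0.38 to 0.0425 for ZNF143 and -1.51 to 0.0623 for ZNF277.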
